A study of Mus musculus with 4 samples.

Results

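The cofilin pathway of actin filament disassembly was examined in mouse neutrophils of genotype WT and Srf KO (serum response factor, SRF), through 10 of the 23284 genes in the deposited gene table. The genes were taken by symbol and all 10 were found and tested. They are the filament-severing proteins Cfl1, Cfl2 and Dstn, the cofactors Wdr1 and Cap1, the monomer-recycling protein gene Pfn1, the LIM kinases Limk1 and Limk2, and the Slingshot phosphatases Ssh1 and Ssh2. The samples were mature neutrophils from mouse bone marrow, sorted for high Gr1 staining, for high staining of the 7/4 antigen and for high side scatter (SSC), 2 of genotype WT and 2 of genotype Srf KO. The labels name no treatment, age, strain or Cre driver, and do not say which part of Srf was deleted or whether the samples of a genotype came from separate animals. By its title the series is about SRF in the migration of neutrophils during inflammation.

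Actin filaments age as their subunits release phosphate, and the ADF/cofilin proteins bind the aged part, sever it and speed its loss from the pointed end. WDR1 (also called AIP1) and CAP1 help cofilin take filaments apart, and CAP1 and profilin then recharge the released monomers for new growth at the barbed end. LIM kinases switch cofilin off by phosphorylating a serine near its N terminus, and Slingshot phosphatases remove that phosphate. In neutrophils this cycle supplies monomers for the leading edge of a crawling cell. SRF, the transcription factor encoded by Srf, binds a short sequence called the CArG box and drives many actin cytoskeleton genes.

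The authors' deposited table gives 1 pooled value per genotype for each gene, in FPKM (fragments scaled to transcript length and to the number of mapped fragments). No value of a single sample was used here. Depth is therefore unknown, no spread between replicates can be given, and it cannot be said whether the samples of the genotypes overlap. Log2 folds are given as Srf KO over WT, so a negative value is a lower level in Srf KO. The ± is the standard error that the authors' fold and test statistic imply, and each interval is the 95% interval from that error. A gene is called where the authors' adjusted p is at most 0.05. How far that p reflects the spread between samples is not known, because the options chosen for that test are not given in the sources used here. In bulk RNA, fewer cells of a type and less RNA per cell cannot be told apart.

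Srf itself was 13.7 FPKM in WT and 0.439 in Srf KO per the authors' deposited table, which leaves 3.19% of the WT level. The tested neutrophil markers summed to 42384 FPKM in WT and 30918 in Srf KO over 9 genes, with 5 called lower and 1 (Mpo) higher. Retnlg, which was not called, made up the largest part of both sums, at 24805 FPKM in WT and 17117 in Srf KO per the authors' deposited table. A further 5 neutrophil markers (Camp, Ltf, Ngp, S100a8 and S100a9) had too many reads for the authors' test. Markers of 7 other groups of cells (T and NK, B, erythroid, platelet, monocyte and macrophage, eosinophil to mast cell, and progenitor) were also tested. Of these 47 genes, 36 were called higher and 3 lower. Over all 12634 tested genes, 17.7% were called higher and 17.8% lower. The summed level was higher in Srf KO for each of the 7 lists. Those sums ran from 11.3 FPKM to 1290 in WT and from 22.6 FPKM to 1726 in Srf KO. Ly6c2 made up the largest part of the monocyte and macrophage sums and Hbb-b2 of the erythroid sums, and neither was called. The 3 called lower were Csf1r, Emr1 and Rgs18, of which Rgs18 made up the largest part of the platelet sums. Of these 47 tested markers only the platelet gene Gp6 was listed at 0, in WT. Short transcripts also tended to be higher in Srf KO, with a median log2 fold of 0.33 in genes whose transcripts had at most 1564.5 bases (the lower quartile) and -0.17 in those of at least 3817 bases (the upper quartile). The part that other cells or transcript length play in the differences below was not tested beyond a length adjustment, which is given beside the genes and counts whose call it changed and some others.

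Cofactors and phosphatases of the pathway were lower in Srf KO, while the cofilins and their kinases were not called. Of the 10 genes, 5 were called lower (Wdr1, Ssh2, Ssh1, Cap1 and Pfn1) and 0 higher per the authors' deposited table, against 17.8% of all 12634 tested genes called lower and 17.7% called higher. The median log2 fold of the 10 genes was -0.54, against 0.08 for all tested genes. The 10 genes were chosen with earlier results of these data known, so these comparisons are not independent of those results. The other 5 genes (Cfl1, Cfl2, Dstn, Limk1 and Limk2) had adjusted p-values from 0.126 to 0.978 per the authors' deposited table. By role, both phosphatases and both cofactors were called lower, and none of the cofilins or kinases was called. After the length adjustment Cfl1 was called lower too, at a log2 fold of -0.61. The interval of Cfl1 overlaps those of Cap1 and Pfn1, and no difference between roles was tested. Among the uncalled cofilins the values differed in sign, with Cfl2 higher and Cfl1 and Dstn lower in Srf KO.

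**Figure D1:**
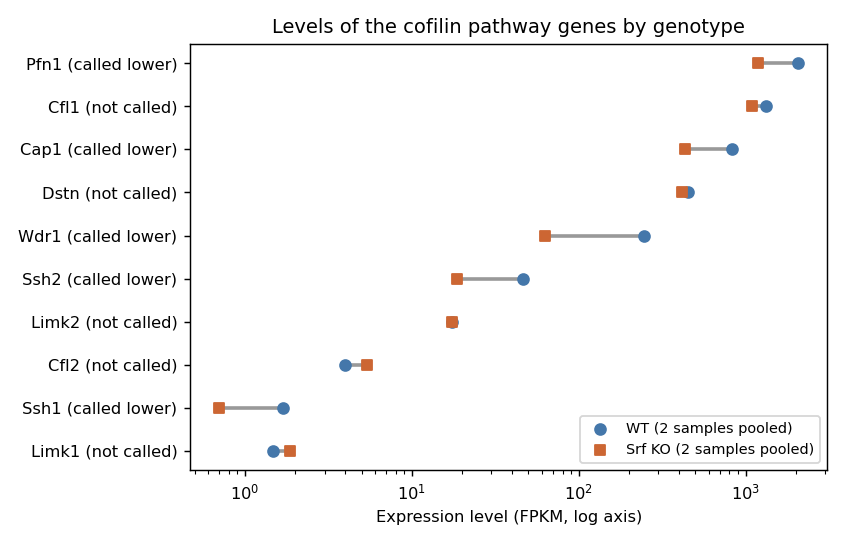
Level of each of the 10 genes in FPKM on a log axis, with a circle for WT and a square for Srf KO, each 1 value pooled by the authors from 2 samples. The widest gaps are those of Wdr1, Ssh2 and Ssh1, while the circle and square of Limk2 coincide at 17.4 and 17.5 FPKM.

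Profilin 1 and cofilin 1 were the most abundant transcripts of the pathway in both genotypes. In WT the order of levels by the authors' deposited table was Pfn1, Cfl1, Cap1, Dstn, Wdr1, Ssh2, Limk2, Cfl2, Ssh1 and Limk1, from 2073 down to 1.48 FPKM. In Srf KO the order differed only at its end, where Ssh1 fell below Limk1. Neighbours drew close in 3 places in Srf KO: Pfn1 stood 1.09 times above Cfl1, Cap1 1.04 times above Dstn and Ssh2 1.06 times above Limk2. In WT the corresponding ratios of FPKM were 1.56, 1.83 and 2.66. Without a spread for single levels, none of these neighbours can be said to differ within a genotype.

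None of the severing genes was called. Cfl1, which encodes non-muscle cofilin (mm10 chromosome 19, 5490455 to 5494031, plus strand), was at 1326 FPKM in WT and 1089 in Srf KO per the authors' deposited table. Its log2 fold was -0.28 ± 0.20 with an interval from -0.67 to 0.10 (adjusted p = 0.261) per the authors' deposited table, and no part of that interval reaches the interval of Wdr1. Dstn, which encodes destrin or ADF (chromosome 2, 143915331 to 143943324, plus strand), was at 451 and 415 FPKM, a log2 fold of -0.12 ± 0.19 (interval -0.50 to 0.25, adjusted p = 0.652) per the authors' deposited table. Cfl2, the form typical of muscle (chromosome 12, 54858819 to 54862877, minus strand), was the only severing gene with a higher value in Srf KO, at 3.97 FPKM in WT and 5.35 in Srf KO per the authors' deposited table. That fold of 0.43 ± 0.23 was not called (interval -0.02 to 0.88, adjusted p = 0.126) per the authors' deposited table.

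Cfl1 made up most of the severing family in both genotypes. Of the summed FPKM of the 3 genes it held 74.4% in WT and 72.1% in Srf KO, Dstn held 25.3% and 27.5%, and Cfl2 held 0.223% and 0.355%. The sum itself was 1781 FPKM in WT and 1509 in Srf KO, so 84.7% of the WT level remained. The call for Cfl1 depended on the length adjustment: recomputed with the errors of the authors' deposited table, its log2 fold was then -0.61 with an adjusted p of 0.010, past the threshold. The length used for Cfl1 was the 1184 bases within its deposited locus. The full GENCODE M21 model has 2354 bases, and the adjustment was not run with that length. Dstn (-0.27) and Cfl2 (0.41) stayed uncalled after the same adjustment. GENCODE M21 places 1 near-identical pseudogene of Cfl1 (Gm6180) and an overlapping gene on the opposite strand (Snx32) that could share its reads. Snx32 stood at 2.92 FPKM in WT and 2.76 in Srf KO per the authors' deposited table, far below Cfl1.

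Actin, the substrate of these proteins, fell. Actb was at 4667 FPKM in WT and 1268 in Srf KO (-1.88 ± 0.23, adjusted p = 2.05e-14) and Actg1 at 2246 and 262 FPKM (-3.10 ± 0.20, adjusted p listed as 0) per the authors' deposited table. The summed FPKM of the 3 severing genes per summed FPKM of the 2 cytoplasmic actins was therefore 0.258 in WT and 0.986 in Srf KO, a ratio 3.83 times higher. Pfn1 per cytoplasmic actin likewise was 0.300 in WT and 0.776 in Srf KO. These are ratios of mRNA levels from pooled values and carry no error.

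Wdr1 had the largest fall of the pathway. The gene encodes a WD-repeat protein that binds cofilin-coated filaments and speeds their fragmentation, and it lies on chromosome 5, 38526813 to 38561595, minus strand. Its level was 245 FPKM in WT and 62.4 in Srf KO, a log2 fold of -1.97 ± 0.18 (interval -2.33 to -1.61) with an adjusted p listed as 0 per the authors' deposited table. In all, 25.5% of the WT level remained, and 1.12% of tested genes had a lower fold. Its interval and that of Cfl1 do not overlap, though the difference of the folds was not tested. Summed severing-gene FPKM per Wdr1 FPKM went from 7.28 in WT to 24.2 in Srf KO. By level, Wdr1 went from above 97.6% of tested genes in WT to above 91.5% in Srf KO.

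Cap1 also fell. The gene encodes cyclase-associated protein 1, which works with cofilin at the pointed end and returns monomers to the ATP-bound state (chromosome 4, 122859228 to 122885881, minus strand). Cap1 was at 828 FPKM in WT and 431 in Srf KO, a log2 fold of -0.94 ± 0.20 (interval -1.33 to -0.55, adjusted p = 2.49e-05), per the authors' deposited table. That interval lies above the interval of Wdr1, though the difference of the folds was not tested. The gene overlaps Ppt1 on the opposite strand in GENCODE M21, which was at 54.3 and 42.5 FPKM per the authors' deposited table. Because the library kit does not keep the strand, reads of the overlap cannot be told apart.

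Pfn1, which encodes profilin 1, the main carrier of actin monomers to growing ends (chromosome 11, 70651847 to 70654650, minus strand), also fell. Its level went from 2073 FPKM to 1187, a log2 fold of -0.80 ± 0.20 (interval -1.19 to -0.42, adjusted p = 0.000332), per the authors' deposited table. Pfn1 has a short transcript, and after adjustment for length its log2 fold was -1.18. Even after its fall Pfn1 stood above 99.7% of tested genes in Srf KO.

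The kinases that switch cofilin off were not called at gene level. Limk2 (chromosome 11, 3344256 to 3409189, minus strand, by GENCODE M21) was at 17.4 FPKM in WT and 17.5 in Srf KO, a log2 fold of 0.01 ± 0.25 with an interval from -0.48 to 0.50 (adjusted p = 0.978) per the authors' deposited table. Limk1 (chromosome 5, 134656039 to 134688590, minus strand) was at 1.48 and 1.88 FPKM, a log2 fold of 0.34 ± 0.27 (interval -0.18 to 0.87, adjusted p = 0.327), per the authors' deposited table. Limk2 held 92.2% of the summed FPKM of the kinase pair in WT and 90.3% in Srf KO. Neither interval reaches a 2-fold change in either direction.

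Both phosphatases that switch cofilin on fell. Ssh2 (chromosome 11, 77216425 to 77460219, plus strand), the more abundant, went from 46.3 FPKM to 18.5, a log2 fold of -1.32 ± 0.18 (interval -1.68 to -0.96, adjusted p = 2.13e-11), per the authors' deposited table. Ssh1 (chromosome 5, 113942219 to 113993757, minus strand) went from 1.70 FPKM to 0.701, a log2 fold of -1.28 ± 0.29 (interval -1.85 to -0.71, adjusted p = 0.000113), per the authors' deposited table. Their folds lay within each other's intervals although Ssh2 was far more abundant. Ssh2 is a long transcript, and with the length adjustment its log2 fold was -1.01 and that of Ssh1 -1.25, both still called. The length used for Ssh1 was the 3174 bases within its deposited locus, while its full GENCODE M21 model has 8436 bases.

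Phosphatase and kinase transcripts can be set side by side as a ratio. The summed FPKM of Ssh1 and Ssh2 per summed FPKM of Limk1 and Limk2 was 2.55 in WT and 0.992 in Srf KO. With Ssh3, the remaining Slingshot gene, it was 3.25 in WT and 1.32 in Srf KO. These ratios describe mRNA, not enzyme activity or cofilin phosphorylation, and carry no error.

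**Figure D2:**
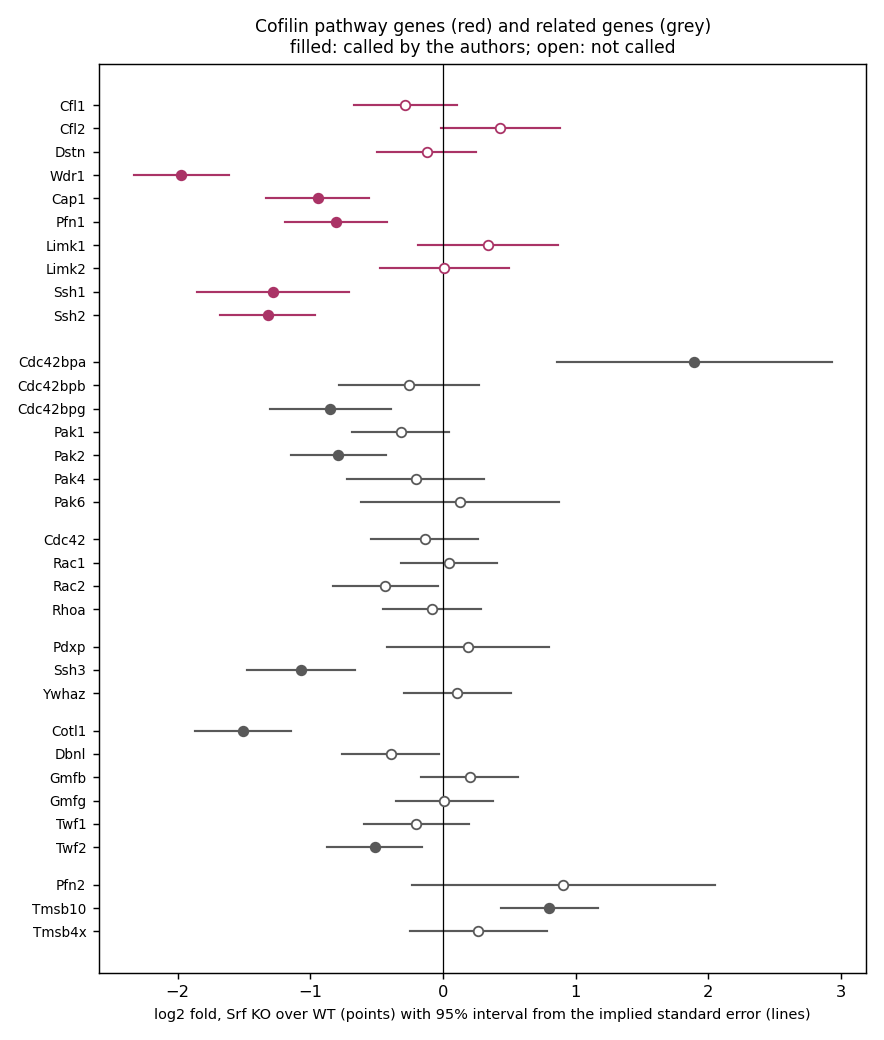
Log2 fold of Srf KO over WT for the 10 genes (red) and 23 of the tested related genes (grey), with lines for 95% intervals from the implied standard errors. Filled points are called by the authors: 5 of the 10 lie left of 0 and none lies right, while the related genes drawn have 5 filled points left of 0 and 2 right.

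Below the gene level, Limk2 was the only gene of the 10 with more than 1 isoform row. The deposited isoform table holds 12 isoform rows for the 10 genes, of which 5 were called lower and 1 higher, against 14.0% and 13.1% of the 14766 tested isoforms. The 5 called lower are the single isoforms of the 5 genes called lower, so they repeat those results. The 1 called higher is a Limk2 isoform. The start-site and coding-sequence tables hold the same 12 values and the same calls.

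The Limk2 isoforms start at different promoters and code for proteins of different length. LIM kinases carry LIM domains at the N terminus and the kinase domain at the C terminus. In GENCODE M21 (GRCm38) the isoform NM_010718 starts at position 3409174 of chromosome 11 and has 638 codons, NM_173053 starts at 3371376 and has 617 codons, and NM_001034030 starts at 3356141, 53033 bases downstream of the first, and has 451 codons. The 3 models share 2850 exonic bases. Only 89 bases are found in NM_001034030 alone, 229 in NM_010718 alone and 408 in NM_173053 alone. Of the bases of NM_010718, 664 are absent from NM_001034030, so those and the 89 are what separates the full-length model from the short one. The 200 bases from 250 to 51 upstream of the outermost starts that RefSeq gives (GRCm38.p6, minus strand, chr11:3409289-3409488 and chr11:3356192-3356391) are shown because the pooled shares of the isoforms they precede differed between genotypes. That difference of shares carries no error and was not tested. Capitals mark a stretch 1 letter away from a CArG box. The downstream window lies in an intron of the 2 longer coding models and touches exons of non-coding Limk2 transcripts.
Limk2 upstream start: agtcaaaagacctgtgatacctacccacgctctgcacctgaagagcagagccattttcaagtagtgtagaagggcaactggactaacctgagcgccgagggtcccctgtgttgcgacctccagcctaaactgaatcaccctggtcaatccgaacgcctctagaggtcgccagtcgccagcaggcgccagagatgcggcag
Limk2 downstream start: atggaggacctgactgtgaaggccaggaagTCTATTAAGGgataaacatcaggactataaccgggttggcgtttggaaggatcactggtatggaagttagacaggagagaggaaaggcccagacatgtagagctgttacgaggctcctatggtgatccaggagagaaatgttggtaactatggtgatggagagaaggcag

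The isoform from the downstream start was called higher in Srf KO while the gene total was not called. NM_001034030 went from 3.50 FPKM in WT to 12.7 FPKM in Srf KO, a log2 fold of 1.86 ± 0.72 (interval 0.46 to 3.27, adjusted p = 0.0372), in the authors' deposited isoform table. NM_010718, the full-length isoform, was at 13.0 FPKM in WT and 4.36 in Srf KO, but its fold of -1.58 ± 1.09 was not called (interval -3.72 to 0.57, adjusted p = 0.302) in the authors' deposited isoform table. NM_173053 was at 0.854 and 0.423 FPKM and was not called (adjusted p = 0.798) in the authors' deposited isoform table. By share of the summed isoform FPKM, NM_001034030 held 20.1% of Limk2 in WT and 72.7% in Srf KO, and NM_010718 held 74.9% and 24.9%. These shares come from pooled values and carry no error. The intervals of the folds of NM_001034030 and NM_010718 overlap, and the difference of those folds was not tested. The rise of NM_001034030 passed in the start-site and coding-sequence tables too (adjusted p = 0.0336 and 0.0342 per the authors' deposited tables), which hold the same values. It missed a threshold of 0.01.

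The share of the shortest isoform was compared between genotypes over all genes, a comparison chosen after the data were seen. Among 1297 genes with at least 2 isoforms that reached 1 FPKM in either genotype, the share of the shortest isoform was higher in Srf KO in 832 (64.1%), with a median change of 3.67 percentage points. Limk2 moved by 53.3 points on that count, which leaves out NM_173053 for its low level, and 27 genes moved further. A fall at least as large was seen in 8 genes. Of 8148 genes not called at gene level, 281 (3.45%) had a called isoform. Those 8148 include genes with 1 isoform row, which repeats the gene, so the share says little about genes with several isoforms such as Limk2. The Limk2 models differ in length, with 2939 exonic bases in NM_001034030 and 3514 in NM_010718. The deposited locus of Limk2 (3202353 to 3479831) is shared with 8 other genes of the table, whose part in the isoform values was not tested.

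**Figure D3:**
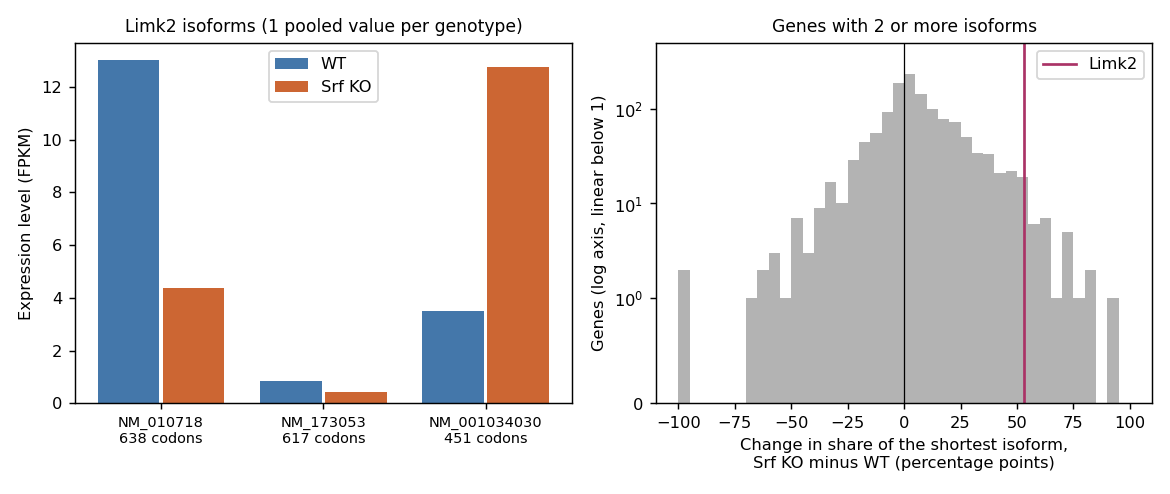
Left, FPKM of the 3 Limk2 isoforms in WT and Srf KO, 1 pooled value per bar, with their coding length; NM_010718 went from 13.0 to 4.36 and NM_001034030 from 3.50 to 12.7. Right, change in the share of the shortest isoform in 1297 genes with 2 or more isoforms, with Limk2 marked at 53.3 percentage points on the upper side of a distribution whose median is 3.67.

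The start regions were searched for the CArG box, the sequence SRF binds. RefSeq windows of 250 bases before to 50 after a start (GRCm38.p6) matched all 10 genes, with 14 windows in total. None of the 14 held a CArG box, which reads the same on both strands, while 1.63% of all 32851 windows did. Among genes outside the pathway, the Actg1 window held 1 and the Srf window 2. With 1 letter allowed to differ, a looser search chosen after the data were seen, 4 of the 14 windows (28.6%) held a match against 21.1% of all windows. The 4 belong to Wdr1, Dstn, Cfl1 and the downstream start of Limk2, so they include the gene with the largest fall and severing genes that were not called. The stretches of Wdr1 (chr5:38561733-38561762, minus strand), Dstn (chr2:143915200-143915259, plus strand) and Cfl1 (chr19:5490265-5490324, plus strand) are shown with the match in capitals. Whether such a match bears on the folds was not tested.
Wdr1: gagcgcttgaCTATATATGGtcaaagctgg
Dstn: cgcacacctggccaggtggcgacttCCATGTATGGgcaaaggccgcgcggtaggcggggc
Cfl1: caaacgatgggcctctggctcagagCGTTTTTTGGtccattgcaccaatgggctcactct

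In Wdr1 the match begins 53 bases upstream of the start RefSeq gives, in Dstn 106 and in Cfl1 165 bases upstream. GENCODE M21 starts the Wdr1 transcript further upstream, at 38561806, so by that model the match lies in the first exon. Dstn has another match that begins at base 41, with its start counted as base 1. The windows of Pfn1, Cap1, Ssh1 and Ssh2, whose genes fell, held no match with up to 1 letter different. A match describes letters only, and no match says only that these letters are not in the window.

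Other genes of cofilin regulation and monomer handling were counted by role. Of 32 listed genes 30 were in the table and 25 were tested, with 6 called lower and 2 higher per the authors' deposited table, against the 17.8% and 17.7% of all tested genes. Pak3, Dbn1, Cap2, Pfn3 and Pfn4 were not tested, and Testk1 and Testk2 were not analysed here. The median log2 fold of the tested genes was -0.14, against 0.08 over all tested genes. The list was chosen by role, with earlier results of these data known, and leaves out the 10 genes above.

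Among the kinases that activate LIM kinases and their relatives, 3 of 9 tested were called lower and 1 higher. The shares over all tested genes were 17.8% lower and 17.7% higher, and no count of these small role groups was tested against them. After the length adjustment 2 of the 9 were called lower and 1 higher. Pak2, a p21-activated kinase and the most abundant of the group, went from 87.4 FPKM to 50.6 (-0.79 ± 0.18, adjusted p = 0.000158) per the authors' deposited table. Cdc42bpg, which encodes an MRCK kinase, went from 2.81 FPKM to 1.56 (-0.85 ± 0.23, adjusted p = 0.00159) per the authors' deposited table. The 1 called higher was Cdc42bpa, named after its value was seen, at 0.0604 FPKM in WT and 0.225 in Srf KO per the authors' deposited table. None of the 4 upstream GTPases (Rhoa, Rac1, Rac2 and Cdc42) was called. The most abundant of them, the leukocyte GTPase Rac2, was at 611 and 452 FPKM (-0.43 ± 0.20, adjusted p = 0.0779) per the authors' deposited table.

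Ssh3 fell as its paralogs did, from 13.3 FPKM to 6.35 (-1.07 ± 0.21, adjusted p = 4.94e-06) per the authors' deposited table. All 3 Slingshot genes were therefore called lower, against 17.8% of all tested genes. Ywhaz, which encodes an adaptor that binds phosphorylated cofilin, was at 260 and 281 FPKM and was not called (adjusted p = 0.715) per the authors' deposited table.

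Among the other proteins with an ADF-homology domain, 2 of 6 tested were called lower, against 17.8% of all tested genes. Cotl1, which encodes coactosin-like protein, an actin filament binder, fell from 630 FPKM to 222 (-1.51 ± 0.19, adjusted p = 5.65e-14) per the authors' deposited table. Twf2, a twinfilin that binds monomers and caps barbed ends, went from 168 FPKM to 118 (-0.51 ± 0.18, adjusted p = 0.0183) per the authors' deposited table. Dbnl, which encodes drebrin-like protein, was not called (-0.39 ± 0.19, adjusted p = 0.0861) per the authors' deposited table but passed after the length adjustment at -0.54. It was named after its value was seen. Gmfg, the leukocyte glia maturation factor, which acts on filament branches, was at 493 and 497 FPKM (0.01 ± 0.19, interval -0.36 to 0.38) per the authors' deposited table. Among abundant genes of this domain family, Cotl1 and Twf2 were thus called lower while Cfl1, Dstn, Gmfg and Dbnl were not called. After the length adjustment Cfl1 and Dbnl were called lower too.

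Of the 3 other monomer binders tested, 1 was called higher and 0 lower, against 17.7% and 17.8% of all tested genes. Tmsb10, which encodes thymosin beta 10, rose from 307 FPKM to 535 (0.80 ± 0.19, adjusted p = 0.000173) per the authors' deposited table. Tmsb4x, which encodes thymosin beta 4, the main monomer buffer of leukocytes, was at 14445 and 17388 FPKM and was not called (0.27 ± 0.26, adjusted p = 0.445) per the authors' deposited table. The FPKM of Tmsb4x per FPKM of Pfn1 was 6.97 in WT and 14.7 in Srf KO. Both thymosin transcripts are short, and the length adjustment ended the call of Tmsb10 (log2 fold 0.44, adjusted p = 0.058 recomputed from the authors' deposited table) and turned the uncalled fold of Tmsb4x to -0.11. The 1 higher call left in the list was then Cdc42bpa.

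**Figure D4:**
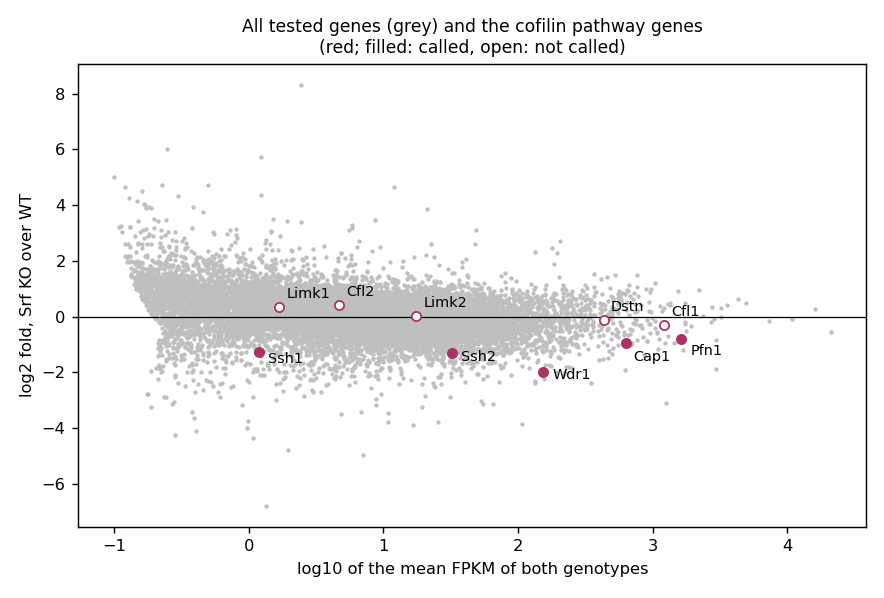
Log2 fold of Srf KO over WT against the log10 mean FPKM of both genotypes for the tested genes above 0 in both (grey) and the 10 genes (red; filled where called). The called genes span the range of levels, from Ssh1 at 1.70 to Pfn1 at 2073 FPKM in WT, and Wdr1 is the lowest of the 10.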

How the data were processed

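RNA-seq libraries of 2 WT and 2 Srf KO samples were made, per the labels' protocols, with version v2 of Illumina's TruSeq RNA kit, which does not keep the strand. CASAVA 1.8.1, TopHat2 2.0.0, Cufflinks 2.0.0 and mm10 are named per the submitters' processing notes. The 4 tables hold FPKM deposited by the authors as 1 value per genotype, with a log2 fold (WT over KO; its sign was turned here), a test statistic (a score deposited by the authors), a p-value and a q-value, per the file headers. The authors' own test is the result used; the q is its Benjamini-Hochberg adjustment over tested rows, checked on all 4 tables. Genotypes were grouped by the labels. The standard error is the absolute fold over the absolute statistic.

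Named genes were the 10 members, Srf, Actb, Actg1, up to 6 called genes per direction with the largest absolute fold from the related list, at 1 FPKM or more in either genotype, and the most abundant gene of each role. Members and lists were chosen with earlier results of these data known. Transcript lengths came from GENCODE M21, clipped to each row's locus, and covered 99.1% of the genes that had a fold. The length adjustment subtracted the running median fold over 50 length bins, smoothed over 5. Near-identical copies were transcripts of other genes aligned by minimap2 2.31 over at least 300 bases at 95% identity or more. The steps for recomputed calls were run on simulated folds with a built-in length trend. That run checks the steps only and not the recomputed call of any gene here. Alternatives were thresholds of 0.01 and 0.10, filters at 1 and 5 FPKM, a 2-fold minimum, centring, length, a pseudocount of 1 and summed isoforms. The looser CArG search and the isoform share comparison were added after seeing the data. The software was matplotlib 3.10.9, scipy 1.17.1, pandas 2.3.3 and numpy 2.4.6 under Python 3.11.15. Some genes of the related list are counted but not reported here by name.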

Additional observations from a re-analysis of the deposited data

How the results depend on the processing

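Of 58 alternatives for the folds of single genes, 55 kept the side of the threshold and the direction or had no test and moved little. The 2 settings with no test were a pseudocount and summed isoforms, and moving little meant by less than the implied error. The FPKM filters left each fold as it was by design and only readjusted its p. Summed isoforms repeated the gene values, so these settings could hardly have changed a result. Cfl1 passed after length adjustment, Limk2 went from 0.01 to -0.067 when folds were centred on the median of all tested genes (0.08), never called, and Ssh1 moved to -0.67 on the log2(FPKM + 1) scale, where Srf was -3.36. The 5 members called lower became 3 (Wdr1, Ssh1 and Ssh2) with a 2-fold minimum, and 4 with a filter at 5 FPKM, which leaves out Ssh1. They became 6 after length adjustment, which added Cfl1, and the median fold of the 10 genes was then -0.81. The 2 related genes called higher became 1 with filters at 1 and at 5 FPKM and 1 after length adjustment, which ended the call of Tmsb10. The 6 related genes called lower became 8 with centred folds and at a threshold of 0.10, and 5 at 0.01 and with the filter at 5 FPKM. They stayed 6 after length adjustment, but 1 kinase left the calls and Dbnl joined them. The 1 Limk2 isoform called higher became 0 at a threshold of 0.01. Pooled values allowed no analysis without each replicate, and depth limits could not be set. No paired analysis was possible because the tables hold no per-sample values.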
